A study of Mus musculus with 24 samples.

Results

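The 10 genes described here are targets of the tumour suppressor p53 that act in cell-cycle arrest or in the feedback on p53 itself. They were chosen by name, as *Cdkn1a*, *Btg2*, *Plk2*, *Gadd45a*, *Mdm2*, *Ccng1*, *Ppm1d*, *Trp53inp1*, *Zmat3* and *Sesn2*, and make up 10 of the 49315 genes counted in every library. The rule uses their names alone, but the names were chosen with earlier results of these data known. Their mRNA was followed in primary astrocytes grown from the cortex of wild-type C57BL/6J mouse embryos late in gestation. The cells were mock-irradiated (0 Gy) or exposed to 0.1 Gy or 2 Gy X-rays, and RNA was taken at 6 h or 24 h. Each of the 6 conditions has 4 libraries, numbered 1 to 4. All groups share genotype, passage and tissue, and the 0 Gy cultures went through the procedure without any beam. The cortices of all embryos of a pregnant mouse were pooled for each isolation, so a library stands for a culture and not for a single embryo.

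p53 is kept scarce in unstressed cells because Mdm2, a ubiquitin ligase that is itself a p53 target, marks it for degradation. DNA double-strand breaks activate the kinases ATM and Chk2, which release p53 from Mdm2, and p53 then binds pairs of short sequence motifs near its target genes. One branch of targets stops the cell cycle, with p21 (*Cdkn1a*) blocking cyclin-dependent kinases. Another branch (*Mdm2*, *Ppm1d*, *Ccng1*) returns p53 to its low level, so that the response can come in pulses.

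The counts per library summed to between 14742855 and 38194800, and all 10 genes passed the filter on low counts in every comparison. The summed level of 10 astrocyte markers lay between 2037 and 2926 CPM (counts scaled to the size of the library) in all libraries, and none of them was at 0, with *Gfap*, the astrocytic intermediate filament, at 344 to 798 CPM and *S100b* at 1.15 to 5.67 CPM. Markers of other cells were also present. The sum of 8 microglial markers, with *Csf1r*, the receptor for colony-stimulating factor 1, among them, ranged from 181 to 1823 CPM in mock-irradiated cells and from 192 to 1596 CPM after 2 Gy at 6 h, and from 164 to 1406 CPM and from 176 to 1559 CPM at 24 h. Sums over markers of fibroblasts and vessels lay between 295 and 1417 CPM, of the oligodendrocyte lineage between 288 and 816 CPM, and of neurons between 236 and 422 CPM. Some markers of the last types were near 0, with *Rbfox3* of neurons at 0.89 CPM or less, *Mog* of oligodendrocytes at 0 in 10 libraries, the neuronal *Slc17a6* in 18 and the endothelial *Cldn5* in 21. Others were well above 0 in every library, with the neuronal *Stmn2* at 181 to 322 CPM and *Tubb3* at 35.2 to 123 CPM, *Olig1*, *Olig2* and *Cspg4* of the oligodendrocyte lineage at 151 to 538, 59.3 to 192 and 12.5 to 131.5 CPM, and *Pdgfrb* of pericytes at 45.5 to 78.5 CPM. The part of these mixtures in the results was not tested, and in bulk RNA fewer cells of a type and less RNA per cell cannot be told apart. Libraries also differed in a trend with the GC content of genes, from a correlation of −0.50 in replicate 1 of mock-irradiated cells at 24 h to 0.37 in replicate 3 of 2 Gy at 24 h, and the 3 libraries numbered 3 at 24 h stood apart with 0.31, 0.33 and 0.37.

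In the coordinates of the count files (build mm10, that is GRCm38) the arrest genes are *Cdkn1a* (ENSMUSG00000023067, chr17:29090979-29100722, plus strand), *Btg2* (ENSMUSG00000020423, chr1:134075170-134079120, minus strand), *Plk2* (ENSMUSG00000021701, chr13:110395044-110400844, plus strand) and *Gadd45a* (ENSMUSG00000036390, chr6:67035096-67037457, minus strand). The genes of p53 feedback are *Mdm2* (ENSMUSG00000020184, chr10:117688888-117710758, minus strand), *Ccng1* (ENSMUSG00000020326, chr11:40748552-40755311, minus strand), *Ppm1d* (ENSMUSG00000020525, chr11:85311244-85347066, plus strand), *Trp53inp1* (ENSMUSG00000028211, chr4:11156431-11174379, plus strand), *Zmat3* (ENSMUSG00000027663, chr3:32334792-32366014, minus strand) and *Sesn2* (ENSMUSG00000028893, chr4:132492032-132510501, minus strand). Counts were taken over all exons of a gene. *Gadd45a* shares 337 of its 1764 exonic bases with the antisense gene *E230016M11Rik*, which had 10 to 70 counts per library. Whether the counting used strand is not given in the sources used here, so the *Gadd45a* values are uncertain to that extent.

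The promoters of 8 of the genes, as RefSeq gives them in GRCm38.p6 from 250 bases before to 50 bases after a transcription start, were searched for the p53 half-site, the decamer that p53 binds in pairs. *Cdkn1a* has 2 such windows in the table, and *Trp53inp1* and *Zmat3* have none there. The pattern of the half-site is the same read on either strand, so a single search covers both. It was found in 5 of the 9 windows, those of *Cdkn1a*, *Gadd45a*, *Mdm2*, *Ccng1* and *Ppm1d*, beside 8.36% of all 32851 windows. A full site, taken as a pair of half-sites with at most 1 base between them and at most 1 mismatch outside the core letters, was found in the upstream window of *Cdkn1a* alone among the 9, and in 0.0883% of all windows. That window, chr17:29090729-29091028 on the plus strand, is shown because it holds the full site, at chr17:29090928-29090947 and 51 bases before the start, and an isolated half-site before it. Capitals mark the half-sites and the full site.

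Cdkn1a promoter: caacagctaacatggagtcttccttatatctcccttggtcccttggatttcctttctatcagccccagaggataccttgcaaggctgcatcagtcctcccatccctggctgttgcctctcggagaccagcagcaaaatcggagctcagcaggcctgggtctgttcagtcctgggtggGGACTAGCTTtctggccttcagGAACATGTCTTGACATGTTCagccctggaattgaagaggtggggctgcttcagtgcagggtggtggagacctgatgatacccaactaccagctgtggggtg

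The other half-sites are shown with 15 bases on each side, 5′ to 3′ on the strand of the gene and in capitals, to set them beside that of *Cdkn1a*. They lie at chr10:117710935-117710944 (*Mdm2*), chr11:40755462-40755471 (*Ccng1*), chr11:85311122-85311131 (*Ppm1d*) and chr6:67037438-67037447 (*Gadd45a*).
Mdm2: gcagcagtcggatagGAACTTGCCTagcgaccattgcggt
Ccng1: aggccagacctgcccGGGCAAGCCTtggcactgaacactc
Ppm1d: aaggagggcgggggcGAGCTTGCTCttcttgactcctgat
Gadd45a: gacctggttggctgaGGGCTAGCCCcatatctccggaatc
A match of letters is a description of these windows only, and sites outside them were not searched.

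In mock-irradiated cells at 6 h the 10 genes spanned a wide range of levels. On the TPM scale, which accounts for gene length as well as library size, *Cdkn1a* came first with 435 ± 150.1 TPM (SD, n = 4) and *Ccng1*, which encodes cyclin G1, second with 381 TPM. *Plk2*, a polo-like kinase, followed with 95.5 TPM, *Mdm2* with 81.3 TPM and *Sesn2*, a stress-induced inhibitor of mTORC1 signalling, with 51.3 TPM. *Gadd45a*, *Btg2*, *Zmat3* and *Trp53inp1* lay between 43.2 and 32.3 TPM, and *Ppm1d*, the phosphatase Wip1, was lowest with 17.4 TPM. Of the neighbours in this order *Ccng1* and *Plk2* had libraries that did not overlap, and every other neighbouring pair overlapped. The lowest count of any of the 10 genes in a library was 354 and the highest 30684.

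Irradiation with 2 Gy was compared with mock irradiation at 6 h to ask how these genes responded early. The level of 8 of the 10 genes was higher after 2 Gy than in the mock-irradiated library of the same number in 4 of 4 pairs, where 8.77% of all genes tested were. The geometric mean of the ratios over the pairs ran from 1.25 for *Btg2* to 1.98 for *Trp53inp1*. In 6 of the 10, *Trp53inp1*, *Ccng1*, *Cdkn1a*, *Mdm2*, *Sesn2* and *Plk2*, the ratio was at least 1.2 in each of the 4 pairs, where 0.869% of all genes reached that, a limit set after the values were seen. *Zmat3* was higher in 3 of 4 pairs and *Gadd45a* in 1 of 4.

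The scale mattered for these pair counts. On library size alone they were again 8 and 6 of the 10 genes. On the TPM scale, which has no TMM step and was tried after the data were seen, 4 of the 10 (*Plk2*, *Mdm2*, *Ccng1* and *Trp53inp1*) were higher in 4 of 4 pairs (1.84% of all genes) and *Mdm2*, *Ccng1* and *Trp53inp1* by at least 1.2 times (0.344%). There the replicate 4 ratio was 0.929 for *Cdkn1a*, 0.901 for *Sesn2*, 0.888 for *Ppm1d* and 0.713 for *Btg2*. TPM also moved the median of all genes in the pairs, to −0.03, 0.24, 0.04 and −0.65 on the log2 scale for replicates 1 to 4. The scales differ by 1 factor per library that is common to all genes, so a gene's place relative to the median gene is the same on each by construction.

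**Figure D1:**
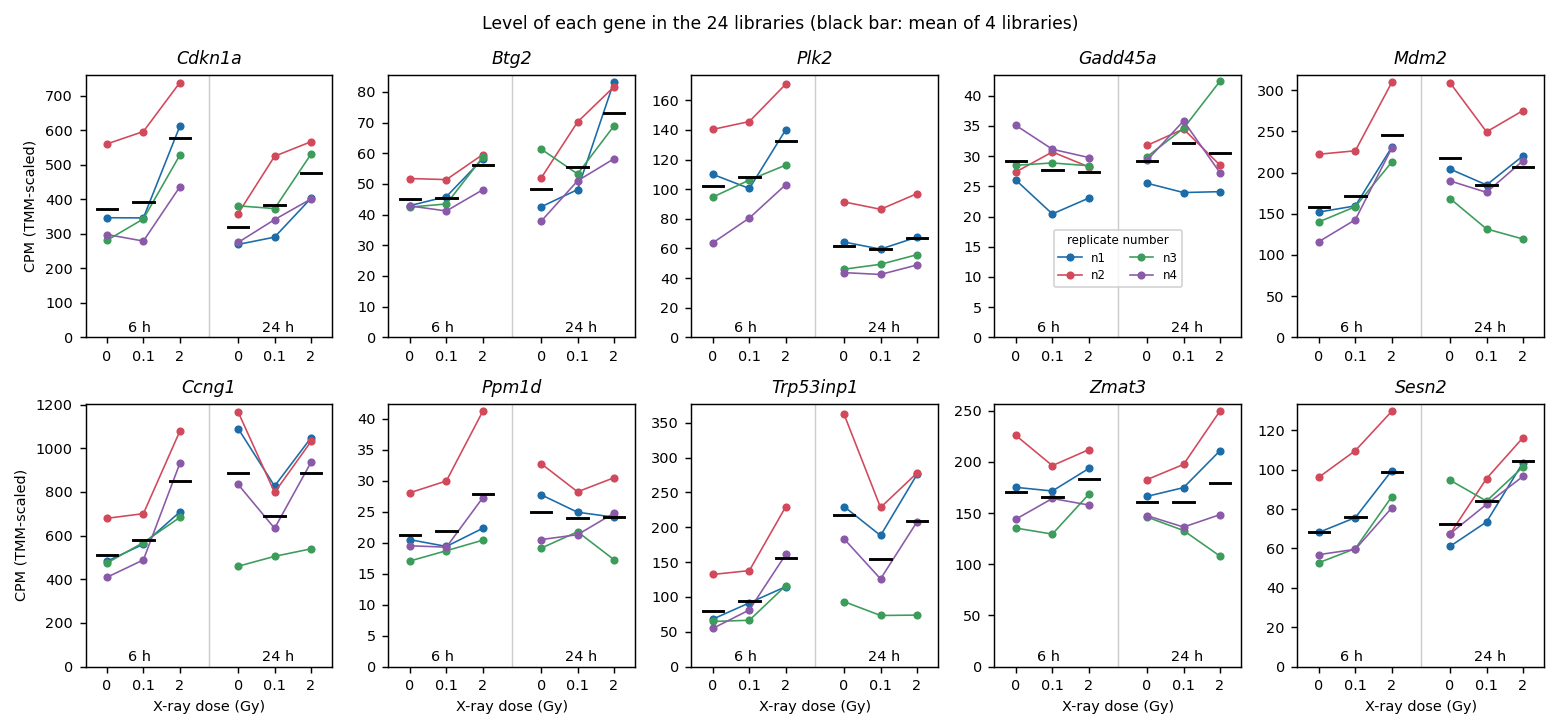
Level of each of the 10 genes in CPM (y axis, linear, 1 panel per gene) in every library at 0, 0.1 and 2 Gy (x axis) after 6 h and 24 h; lines join libraries of the same number and black bars are the means of 4 libraries. At 6 h the mean of *Cdkn1a* was 371 CPM at 0 Gy and 578 CPM at 2 Gy, with all 4 lines going up between them (on the TPM scale replicate 4 goes down), while the lines of *Gadd45a* cross.

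*Cdkn1a*, the inhibitor p21, stood at 346, 560.1, 281 and 298 CPM in mock-irradiated replicates 1 to 4 and at 611, 738, 528 and 436 CPM after 2 Gy. Replicate 2 was highest in both groups, and the mock-irradiated replicate 2 lay above irradiated replicates 3 and 4, so the groups overlapped although each pair differed by 1.32 to 1.88 times. The unpaired fit gave a log2 fold change of 0.64 ± 0.25 (SE, n = 4 per group; edgeR, unadjusted p = 0.0303, adjusted p = 1.0). Blocking on the replicate number gave an estimate of 0.67 ± 0.10 (edgeR, adjusted p = 0.141).

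*Btg2*, an antiproliferative cofactor of mRNA deadenylation, had 42.9, 51.8, 42.5 and 42.8 CPM in mock-irradiated cells and 58.2, 59.6, 58.8 and 48.1 CPM after 2 Gy. Only replicate 4 after 2 Gy fell within the range of the mock-irradiated libraries. *Plk2* had 110.0, 140.4, 94.7 and 63.9 CPM against 140.2, 171, 116 and 103 CPM, and its groups overlapped widely, with replicate 2 high and replicate 4 low in both. *Gadd45a*, a stress-induced protein that inhibits the Cdk1 kinase, had 26.0, 27.4, 28.5 and 35.1 CPM against 23.1, 28.2, 28.4 and 29.8 CPM and showed no common direction. With the block the log2 fold changes were 0.32 ± 0.09 for *Btg2*, 0.40 ± 0.09 for *Plk2* and −0.09 ± 0.09 for *Gadd45a*, with edgeR adjusted p of 0.507, 0.282 and 0.728.

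Among the feedback genes, *Mdm2* stood at 152, 222, 140.2 and 116 CPM in mock-irradiated cells and at 231, 309, 213 and 229.7 CPM after 2 Gy. A single mock-irradiated library, replicate 2, reached into the irradiated range. *Ccng1* had 482, 679, 474 and 409 CPM against 708, 1078, 683 and 930.4 CPM. It was the one member whose groups did not overlap on the CPM scale, where 0.463% of all genes were higher in this way. The two-sided exact permutation test of its 4 against 4 libraries gave p = 0.0286, the smallest it can give. On the TPM scale the *Ccng1* groups overlapped, as mock-irradiated replicate 2 (504 TPM) lay above irradiated replicates 1 (493 TPM) and 4 (414 TPM). The exact p was 0.0571 for *Mdm2* and *Btg2*, and 0.0857 for *Cdkn1a*, *Trp53inp1* and *Sesn2*.

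*Trp53inp1*, which encodes a nuclear cofactor of p53 that also works in autophagy, had 68.1, 132, 64.7 and 54.8 CPM in mock-irradiated cells and 115, 229.6, 116 and 161 CPM after 2 Gy. Its lowest ratio within a pair was 1.68 and its highest 2.94, in replicate 4, and the mock-irradiated replicate 2 lay within the irradiated range. *Sesn2* had 68.2, 96.2, 52.8 and 56.9 CPM against 99.6, 129.7, 86.3 and 80.6 CPM, so that the mock-irradiated replicate 2 lay within the irradiated range. *Ppm1d*, which dephosphorylates p53 and ATM targets, had 20.5, 28.1, 17.0 and 19.5 CPM against 22.3, 41.2, 20.4 and 27.3 CPM, with replicate 2 high in both groups. *Zmat3*, an RNA-binding regulator of splicing, ranged from 135 to 226 CPM without and from 158 to 212 CPM with 2 Gy.

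None of the 10 genes passed the threshold of an adjusted p under 0.05 in the unpaired edgeR fit, nor did any other gene (0.0% of 15994). Unpaired DESeq2 called 1 gene, no member (0.00333%), and the unpaired edgeR fit on all 24 libraries none. An unadjusted p under 0.05 was reached by 1.34% of all genes, among them *Cdkn1a*, *Btg2*, *Mdm2*, *Ccng1*, *Trp53inp1* and *Sesn2*. With the replicate block still no gene was called (0.0%), while 6.88% had an unadjusted p under 0.05. In the order of p in that fit *Trp53inp1* came 4th of 15994 genes with a log2 fold change of 0.98 ± 0.13, *Mdm2* 7th with 0.66 ± 0.09, *Sesn2* 9th with 0.55 ± 0.08, *Cdkn1a* 13th and *Ccng1* 17th with 0.73 ± 0.12, all with the same edgeR adjusted p of 0.141. These 5 were called by DESeq2 with the block (0.395% of all genes), with adjusted p from 2.89e-09 for *Trp53inp1* to 0.000172 for *Sesn2*, and by the blocked edgeR fit on all 24 libraries (0.449% of all genes), which also called *Plk2*. The median log2 fold change of the 10 genes was 0.46 in the unpaired fit and that of all genes −0.00, and 9 of the 10 were above 0 against 49.6% of all genes.

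**Figure D2:**
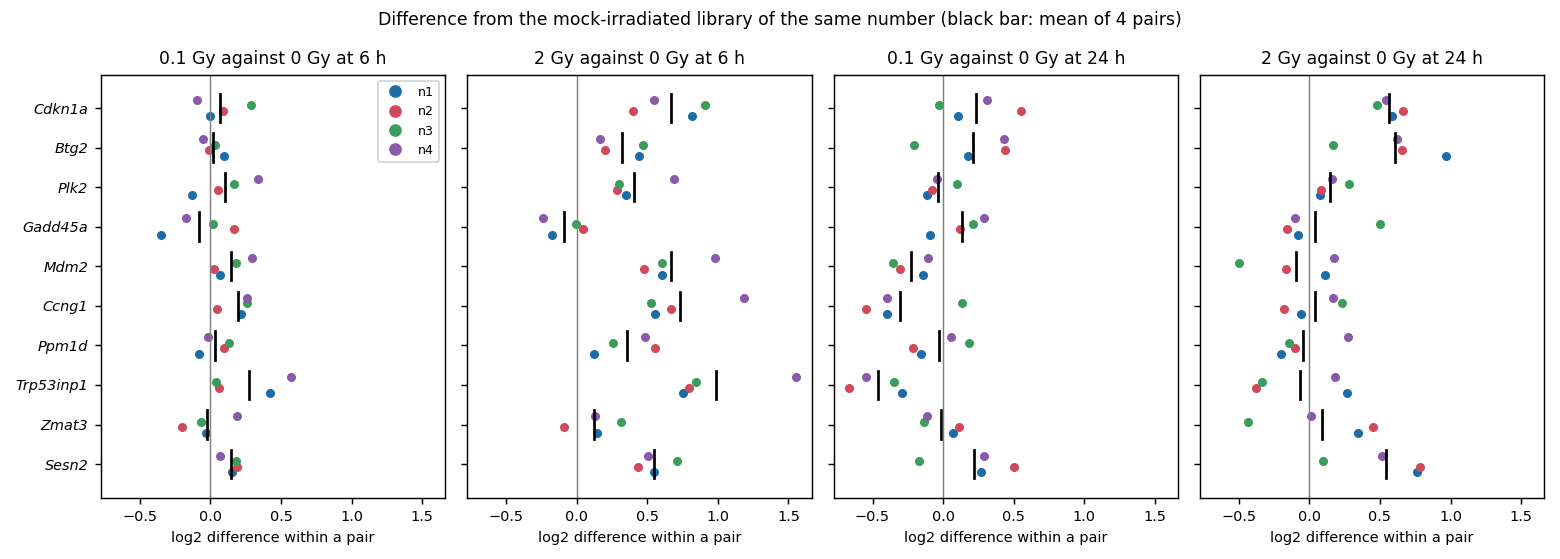
Difference in log2 CPM (x axis) from the mock-irradiated library of the same number for each of the 10 genes (y axis). Panels are 0.1 and 2 Gy at 6 h and 24 h, points are the 4 pairs and black bars their mean. At 2 Gy and 6 h all 4 points lie to the right of 0 for 8 of the genes (4 of them on the TPM scale). At 2 Gy and 24 h they do so for *Cdkn1a*, *Btg2*, *Plk2* and *Sesn2* (on TPM not for *Plk2*).

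The log2 fold changes of this comparison also moved with GC content across all genes (r = −0.39, genes not being independent). *Ccng1* and *Trp53inp1* are rich in A and T, with 39.5% and 39.4% GC against a median of 49.99% over the genes tested, whereas *Sesn2* has 58.7% and *Cdkn1a* 53.7%. In a fit with the block and a correction of each library for GC content and gene length 7 of the 10 genes passed the threshold, all of them higher after 2 Gy, where 0.758% of all genes were. These were *Trp53inp1* with a log2 fold change of 0.82 (edgeR, adjusted p = 0.00179), *Cdkn1a* with 0.73 (0.00335), *Sesn2* with 0.65 (0.00351), *Mdm2* with 0.61 (0.00396), *Ccng1* with 0.59 (0.00396), *Plk2* with 0.39 (0.0424) and *Btg2* with 0.32 (0.0477). *Ppm1d* stayed at 0.35 (0.0989), and *Zmat3* and *Gadd45a* were at 0.07 and 0.02. Replicate 4 of 2 Gy at 6 h had a GC trend of −0.25 and its mock-irradiated partner one of 0.27. Without that pair 7 of the 10 genes were called with the block alone, where 0.799% of all genes were. Without replicate 1, 2 or 3 the fit with the block alone called no gene (0.0%).

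Next, 2 Gy was compared with mock irradiation at 24 h, to see which responses were present at the later time. *Cdkn1a*, *Btg2* and *Sesn2* rose with the replicate block, while *Mdm2*, *Ccng1*, *Trp53inp1* and *Ppm1d* had estimates close to 0. *Cdkn1a* had 269, 358, 381 and 275 CPM in mock-irradiated cells and 403, 566.5, 531 and 401 CPM after 2 Gy, and *Sesn2* 61.1, 67.4, 94.7 and 67.5 CPM against 104, 116, 101 and 96.6 CPM. For both genes every irradiated library lay above every mock-irradiated one on the CPM scale, where 0.944% of all genes did. The two-sided exact permutation test gave p = 0.0286, the smallest possible. On the TPM scale *Cdkn1a* overlapped, with 224 to 430 TPM without and 369.5 to 651 TPM with 2 Gy. *Sesn2* did not, narrowly, with 32.6 to 60.65 TPM and 60.82 to 79.6 TPM. *Btg2*, which overlapped in CPM, did not on TPM, with 28.7 to 50.4 TPM and 57.9 to 68.5 TPM. *Btg2* had 42.55, 51.9, 61.4 and 37.8 CPM against 83.4, 81.7, 69.0 and 58.2 CPM, and the groups overlapped through replicate 3 without and replicate 4 with 2 Gy (exact permutation p = 0.0571).

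The ratios within pairs were 1.39 to 1.58 for *Cdkn1a*, 1.12 to 1.96 for *Btg2* and 1.07 to 1.73 for *Sesn2*, and the lowest of *Btg2* and of *Sesn2* came from replicate 3. The unpaired edgeR fit called none of the 10 genes and no gene at all (0.0%; 3.59% with an unadjusted p under 0.05). Unpaired DESeq2 called 93 genes (0.466%) and the unpaired edgeR fit on all 24 libraries 108 (0.622%), with no member among them. With the block the log2 fold changes were 0.57 ± 0.08 for *Cdkn1a*, 0.61 ± 0.13 for *Btg2* and 0.54 ± 0.12 for *Sesn2* (edgeR, adjusted p = 0.00929, 0.0227 and 0.0282). These are 3 of the 10 genes, and 6.53% of all genes were called higher in that fit. DESeq2 and the edgeR fit on all 24 libraries, both with the block, called the same 3 genes beside 17.0% and 19.7% of all genes. *Plk2* was higher in 4 of 4 pairs, by a geometric mean of 1.11 times (log2 fold change 0.15, edgeR adjusted p = 0.251 with the block). The direction was shared by 4 of 4 pairs in 20% of all genes, and on the TPM scale *Plk2* did not share it.

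*Mdm2* at 24 h had 204, 309, 168.5 and 189.9 CPM in mock-irradiated cells and 220.3, 275, 119 and 214 CPM after 2 Gy. *Ccng1* had 1090.0, 1166, 459 and 834 CPM against 1048, 1031, 539 and 936 CPM. *Trp53inp1* had 229.6, 362, 93.2 and 183 CPM against 276, 278, 73.9 and 208 CPM. In each of these genes 2 pairs were higher and 2 lower after 2 Gy, and replicate 3 was lowest in both groups. Unpaired log2 fold changes were −0.07 for *Mdm2*, with a 95% interval from −0.71 to 0.58, 0.01 for *Ccng1*, from −0.73 to 0.74, and −0.05 for *Trp53inp1*, from −1.13 to 1.03. Intervals of this width do not show that the levels were equal. The remaining genes overlapped widely between the groups, with *Plk2* at 43.7 to 91.4 CPM without and 48.9 to 97.0 CPM with 2 Gy, and *Zmat3* at 146 to 183 CPM and 108 to 249.7 CPM. *Ppm1d* lay at 19.1 to 32.8 CPM and 17.3 to 30.5 CPM, and *Gadd45a* at 25.5 to 31.8 CPM and 24.1 to 42.4 CPM, its highest value being replicate 3 after 2 Gy.

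At 24 h the log2 fold changes increased with GC content across all genes (r = 0.58), opposite to 6 h. With the correction for GC content and length in the blocked fit *Cdkn1a* remained past the threshold with 0.40 (edgeR, adjusted p = 0.0252) and *Ccng1* joined it with 0.36 (0.0381), where 1.32% of all genes were called higher. *Btg2* was at 0.57 (0.0596), *Trp53inp1* at 0.33 (0.116), *Sesn2* at 0.26 (0.164) and *Mdm2* at 0.03. Over the fits that left out a library (unpaired) or a replicate number (blocked), the log2 fold change ranged from 0.47 to 0.65 for *Cdkn1a*. It ranged from 0.48 to 0.76 for *Btg2* and from 0.45 to 0.70 for *Sesn2*. Without replicate 3 the blocked fit called 4 of the 10 genes and 33.1% of all genes. The 4 were *Cdkn1a* at 0.61, *Btg2* at 0.76, *Sesn2* at 0.70 and *Zmat3* at 0.28. Without replicate 1, 2 or 4 the blocked fit called none of the 10. Those fits called 0.892%, 0.432% and 1.54% of all genes, against 13.2% with all replicates.

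**Figure D3:**
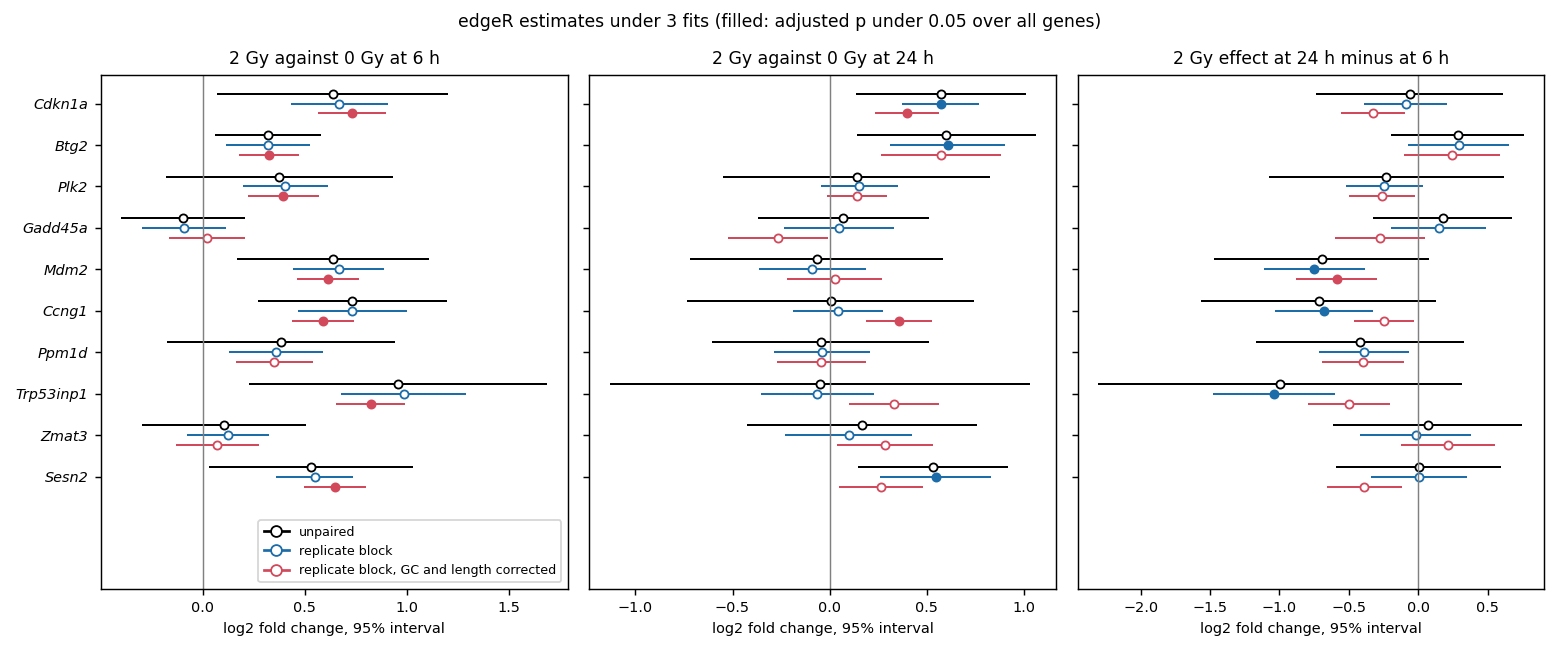
Log2 fold change with its 95% interval (x axis) of the 10 genes (y axis) for 2 Gy at 6 h, 2 Gy at 24 h and the difference between them, from the unpaired fit, the fit with the replicate block and the blocked fit corrected for GC content and length; filled symbols have an adjusted p under 0.05. The unpaired fit has no filled symbol, and *Mdm2* is filled in both blocked fits of the difference, at −0.75 and −0.59.

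Whether a response to 2 Gy differed between 6 h and 24 h was tested as an interaction of dose and time. The unpaired edgeR fit called none of the 10 genes and no gene at all (0.0%; 4.9% with an unadjusted p under 0.05), and unpaired DESeq2 called 7 genes (0.0478%), no member. With the replicate block, numbered within each time, the response of 3 genes was smaller at 24 h than at 6 h, with differences of −1.04 ± 0.20 for *Trp53inp1*, −0.75 ± 0.16 for *Mdm2* and −0.68 ± 0.16 for *Ccng1* on the log2 scale (edgeR, adjusted p = 0.0335, 0.0383 and 0.0402), where 3.23% of all genes were called in this direction. The difference was −0.39 for *Ppm1d* (adjusted p = 0.1), −0.09 for *Cdkn1a*, 0.01 for *Sesn2* and 0.29 for *Btg2* (0.245). The differences moved with GC content (r = 0.58 across genes). With the GC and length correction *Mdm2* was the member past the threshold, at −0.59 ± 0.13 (edgeR, adjusted p = 0.0467; 1.68% of all genes in either direction), with *Trp53inp1* at −0.50 (0.072) and *Ccng1* at −0.24 (0.188). Leaving out replicate 1 or 2 ended all calls of the blocked fit, leaving out replicate 4 gave 1 (0.814% of all genes), and leaving out replicate 3 gave 4 (23.4%). DESeq2 and the edgeR fit on all 24 libraries with the block called *Trp53inp1*, *Mdm2* and *Ccng1* as well, beside 18.3% and 15.9% of all genes.

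The mock-irradiated cells were also compared between 24 h and 6 h. *Trp53inp1* was at 80.0 ± 35.3 CPM at 6 h and 217 ± 112 CPM at 24 h (SD, n = 4), a log2 difference of 1.43 ± 0.41 (edgeR, adjusted p = 0.0729). *Ccng1* differed by 0.78 (0.136), *Mdm2* by 0.45 (0.296) and *Plk2* by −0.75 (0.153). None of the 10 was called in this unpaired fit, where 6.7% of all genes were. The replicate numbers were not shown to pair libraries across times, so the blocked values, added after the data were seen, are given only as an alternative. They were 1.36 for *Trp53inp1*, 0.72 for *Ccng1* and −0.76 for *Plk2* (edgeR, adjusted p = 0.00275, 0.0355 and 0.0097), with 15.3% of all genes called. Unpaired alternatives called *Trp53inp1* with DESeq2 (11.1% of all genes) and without a filter on low counts 1 gene (2.84%), and on all 24 libraries *Trp53inp1* and *Ccng1* (14.3%). With the block DESeq2 called 4 of the 10 (17.8%) and the GC-corrected fit 5 (27.6%). The libraries of the 2 times overlapped in all 3 genes, with *Trp53inp1* at 54.8 to 132 CPM at 6 h and 93.2 to 362 CPM at 24 h, and *Plk2* at 63.9 to 140.4 CPM and 43.7 to 91.4 CPM. These mock-irradiated libraries at 24 h are also the controls of the 24 h comparisons above.

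The lower dose of 0.1 Gy was compared with the same mock-irradiated libraries. At 6 h *Mdm2*, *Ccng1*, *Trp53inp1* and *Sesn2* were higher in 4 of 4 pairs (7.57% of all genes were), with geometric mean ratios of 1.104, 1.14, 1.21 and 1.11, and in these 4 genes the CPM value was higher at each step from 0 to 0.1 to 2 Gy in each replicate number (0.438% of all genes). On the TPM scale *Trp53inp1* alone kept both patterns (2.78% and 0.0563% of all genes), with *Mdm2*, *Ccng1* and *Sesn2* lower than mock in replicate 1, where the median of all genes was at −0.24. No member and no gene was called in the edgeR fit, unpaired or blocked (0.0%; 0.15% and 3.97% with an unadjusted p under 0.05). The blocked log2 fold changes were 0.27 ± 0.09 for *Trp53inp1*, 0.19 ± 0.07 for *Ccng1*, 0.15 ± 0.06 for *Sesn2* and 0.14 ± 0.07 for *Mdm2*, and the GC and length correction gave no call either.

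At 24 h after 0.1 Gy, *Trp53inp1* and *Mdm2* were lower than in mock-irradiated cells in 4 of 4 pairs, where 16.2% of all genes were. Library size alone gave the same 2 genes, but on the TPM scale each was lower in 2 of the 4 pairs, the medians of all genes being 0.56, 0.22, 0.46 and −0.05 in replicates 1 to 4. *Trp53inp1* had 188, 228, 73.3 and 126 CPM against 229.6, 362, 93.2 and 183 CPM without irradiation, and *Mdm2* 185, 249.5, 132 and 176 CPM against 204, 309, 168.5 and 189.9 CPM. With the block *Trp53inp1* fell by 0.47 ± 0.09 on the log2 scale (edgeR, adjusted p = 0.0262), 1 of the 10 genes beside 4.5% of all genes called lower. *Ccng1* was at −0.31 (0.0817) and *Mdm2* at −0.24 (0.0933). The unpaired fit called no gene (0.0%; 1.49% with an unadjusted p under 0.05), the GC correction with the block called none of the 10 (1.48% of all genes), and log2 fold changes again moved with GC content (r = 0.61). DESeq2 with the block called *Trp53inp1* and *Ccng1* (14.7% of all genes), but the blocked edgeR fit on all 24 libraries called no gene (0.0%), with *Trp53inp1* at −0.46 (adjusted p = 0.0558). Without replicate 3 the blocked edgeR fit called 5 of the 10 (23.2% of all genes). *Trp53inp1* (−0.50) and *Ccng1* (−0.45) were lower there, and *Cdkn1a* (0.32), *Btg2* (0.34) and *Sesn2* (0.35) higher. Without replicate 1 the fit called 1, *Trp53inp1* at −0.52 (7.18%), and without replicate 2 or 4 none (0.13% and 0.0987%).

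The irradiated doses were also set against each other. At 6 h 8 of the 10 genes, all but *Gadd45a* and *Zmat3*, were higher after 2 Gy than after 0.1 Gy in 4 of 4 pairs (6.63% of all genes were; on the TPM scale *Ccng1* and *Trp53inp1* alone). Of the 9 genes that the blocked fit called among 16278 tested (0.0553%), 3 were *Trp53inp1*, with a log2 difference of 0.71 ± 0.10, *Cdkn1a*, with 0.60 ± 0.09, and *Mdm2*, with 0.52 ± 0.07 (edgeR, adjusted p = 0.0306, 0.0445 and 0.0306). The unpaired fit called no gene (0.0%; 0.743% with an unadjusted p under 0.05). In this comparison the trend with GC content was weaker (r = −0.14), and with the correction and the block 7 of the 10 genes were called, where 0.807% of all genes were. DESeq2 with the block called 5 of the 10, adding *Ccng1* and *Sesn2* (0.325%), and the blocked edgeR fit on all 24 libraries called the same 3 (0.127%). Leaving out replicate 1 left 1 of the 10 called (0.00616%), replicate 2 left 1 (0.0546%), replicate 4 left 3 (0.275%) and replicate 3 none (0.00596%). At 24 h *Cdkn1a*, *Btg2*, *Plk2*, *Ccng1*, *Trp53inp1* and *Sesn2* were higher after 2 Gy in 4 of 4 pairs (5.6% of all genes). On library size alone 4 of them were, and on TPM none. The *Sesn2* groups did not overlap in CPM (0.181% of all genes). They did on TPM, with 57.5 to 85.6 TPM after 0.1 Gy and 60.8 to 79.6 TPM after 2 Gy. In this 24 h comparison the blocked and the unpaired edgeR fit called no gene (0.0%), with 4.94% and 1.34% at an unadjusted p under 0.05. Unpaired DESeq2 called 39 (0.22%) and the unpaired fit on all 24 libraries 15 (0.0864%), none of them a member. With the GC and length correction the blocked fit called *Ccng1* at 0.40 and *Trp53inp1* at 0.46 (edgeR, adjusted p = 0.0334 and 0.0411; 0.701% of all genes). Without replicate 3 the fit with the block alone called 2 of the 10 (1.0% of all genes). The comparison shares the 2 Gy libraries with the one against mock irradiation.

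The other genes of the pathway were taken as lists, which were chosen with earlier results of these data known. Of 23 further p53 targets, in apoptosis, metabolism and repair, 20 had log2 fold changes above 0 after 2 Gy at 6 h and 20 at 24 h, with medians of 0.24 and 0.23 against −0.00 and 0.01 for all genes. None passed the unpaired edgeR test, or unpaired DESeq2 or the unpaired edgeR fit on all 24 libraries. With the block 8 of them rose at 24 h, where 6.53% of all genes did, among them *Bax*, which permeabilises the outer mitochondrial membrane, by 0.82 (edgeR, adjusted p = 0.00741), *Bbc3* (Puma) by 0.98 (0.0128), *Phlda3*, an inhibitor of Akt, by 0.77 (0.00284) and the secreted *Gdf15* by 0.69 (0.0208). The others were *Aen* (0.49), *Pidd1* (0.52), *Ephx1* (0.57) and *Ei24* (0.32). With the GC and length correction added, 7 were called at 6 h (0.758% of all genes called higher), namely *Pidd1* (0.82), *Eda2r* (0.72), *Pmaip1* (0.67), *Tnfrsf10b* (0.56), *Phlda3* (0.48), *Ei24* (0.40) and *Apaf1* (0.35), and 4 at 24 h (1.32%), namely *Bax* (0.46), *Aen* (0.45), *Ei24* (0.43) and *Phlda3* (0.38). At 0.1 Gy 11 of the 23 were above 0 at 6 h and 14 at 24 h.

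Genes that p21 represses through the DREAM complex and E2F factors lay on the other side. All 15 of that list were lower after 2 Gy at both times, with median log2 fold changes of −0.29 at 6 h and −0.81 at 24 h. No gene of the list passed the unpaired edgeR test on the 8 libraries. At 24 h unpaired DESeq2 called 8 of the 15 lower (0.456% of all genes), *Ccna2*, *Top2a*, *Bub1*, *Mki67*, *Ccnb2*, *Birc5*, *Aurka* and *Brca1*, and the unpaired edgeR fit on all 24 libraries called these and *Cdk1* (0.617%). With the block 13 of the 15 fell at 24 h, where 6.69% of all genes did, with *Mki67*, the proliferation marker Ki-67, at −1.61 (edgeR, adjusted p = 0.00109), *Bub1*, of the spindle checkpoint, at −1.37, *Ccna2* (cyclin A2) at −1.36 and *Top2a* (topoisomerase IIα) at −1.26. With the GC and length correction 4 were called at 6 h, *Aurka*, *Cdc20*, *Mcm5* and *Plk1* (0.213% of all genes called lower), and 12 at 24 h (1.53%). After 0.1 Gy 10 of the 15 were lower at 6 h and 13 at 24 h.

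Upstream, *Trp53*, the gene of p53 itself, had an unpaired log2 fold change of 0.00 ± 0.09 at 6 h and of 0.06 at 24 h. Of the 12 regulators of p53 in the list 9 were above 0 at 6 h and 4 at 24 h. With the block 4 of them fell at 24 h (6.69% of all genes), the kinases *Atm* (−0.61), *Atr* (−0.43) and *Chek1* (−1.06) and the deubiquitinase *Usp7* (−0.35). *Mdm4*, the partner of Mdm2 that masks the p53 transactivation domain, was at 0.46 ± 0.11 at 6 h (edgeR, adjusted p = 1.0, 0.195 with the block and 0.0217 with the GC correction added) and at 0.08 at 24 h. With the GC correction and the block *Mdm4* at 6 h was 1 of 2 regulators called (0.758% of all genes higher and 0.213% lower), the other being the kinase *Hipk2* at −0.39 (edgeR, adjusted p = 0.0355), and at 24 h *Mdm4* was called at 0.41 (0.0488) and *Chek1* at −0.77 (0.0222), where 1.32% of all genes were called higher and 1.53% lower. At 24 h *Chek1* was also called by the unpaired edgeR fit on all 24 libraries, at −1.06 (adjusted p = 0.0152). Of 14 paralogs of the 10 genes, *Mdm4* included, 7 were above and 7 below 0 at each time. With the block 1 of the 14, *Gadd45g*, was called higher at 24 h, at 0.64 (edgeR, adjusted p = 0.00831), where 6.53% of all genes were, so the share is near that of all genes. In the GC-corrected fit at 6 h *Cdkn1b*, which encodes p27, was called lower at −0.33 (0.0274), 1 of the 14 beside 0.213% of all genes.

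**Figure D4:**
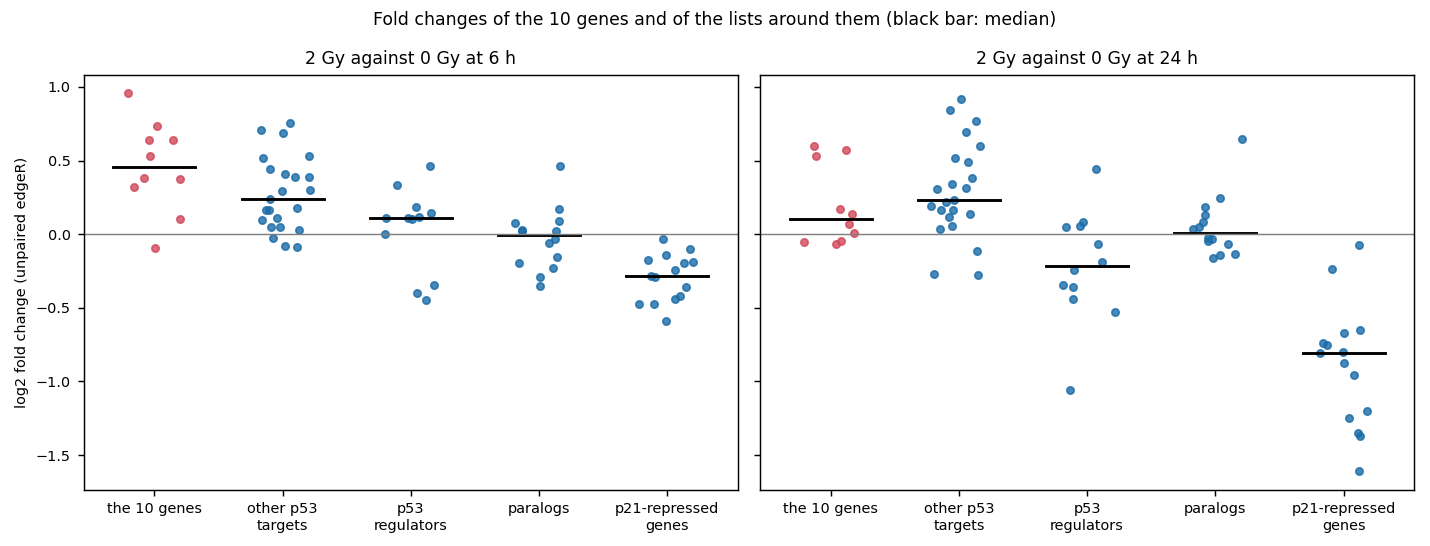
Unpaired log2 fold change after 2 Gy (y axis) at 6 h and 24 h for the 10 genes, 23 further p53 targets, 12 regulators of p53, 14 paralogs of the 10 genes and 15 genes repressed by p21 (x axis); each point is a gene and black bars are medians. The median of the 10 genes lies at 0.46 at 6 h and 0.10 at 24 h, and that of the p21-repressed genes at −0.29 and −0.81.

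The 10 genes varied together to different degrees. Over the 24 libraries, after each log2 CPM value was centred on the mean of the 3 doses with the same replicate number and time, *Plk2* followed the mean of the other 9 members most closely (r = 0.87), then *Mdm2* (0.84), *Cdkn1a* (0.81), *Sesn2* (0.80), *Trp53inp1* (0.79) and *Ccng1* (0.79). *Ppm1d* and *Btg2* came next with 0.64 and 0.63, *Zmat3* had 0.44 and *Gadd45a* −0.35. Between single members the pairs *Mdm2* with *Trp53inp1* (0.94), *Cdkn1a* with *Sesn2* (0.94), *Btg2* with *Sesn2* (0.93) and *Ccng1* with *Trp53inp1* (0.92) were most alike, and *Gadd45a* with *Zmat3* least (−0.60). The 8 genes outside the 10 with the highest correlation to the mean of the members, of 13005 compared, were *Tnfrsf10b* (0.96), *Inka2* (0.94), *Celf5* (0.93), *Klhdc7a* (0.93), *Pmaip1* (0.93), *Ei24* (0.93), *Tacc2* (0.93) and *Ddit4l* (0.93). *Tnfrsf10b* encodes a death receptor for TRAIL and *Pmaip1* the BH3-only protein Noxa, and *Ei24* is an endoplasmic reticulum protein first found by its induction with etoposide. These points share libraries, depth and the GC trend, so the correlations are descriptions.

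**Figure D5:**
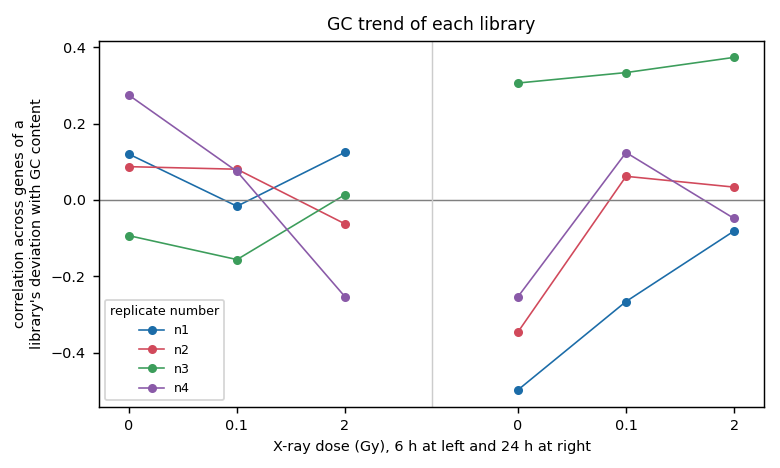
Correlation across genes between a library's deviation and GC content (y axis) for each of the 24 libraries by dose and time (x axis). Values run from −0.50 to 0.37, and replicate 4 at 6 h goes from 0.27 without irradiation to −0.25 after 2 Gy.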

How the data were processed

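Poly(A) RNA of primary astrocytes was sequenced as paired reads by a company, 4 libraries for each of 6 conditions. For each library the authors deposited a table of raw gene counts, neither normalized nor pooled. Per the labels the build was mm10, and the aligner, counter and use of strand are not given in the sources used here. Symbols and GC content were taken from the GENCODE annotation for 48970 of 49315 genes.

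Groups and replicate numbers came from the sample labels. The tests were run in edgeR 4.0.16 under R 4.3.3 (TMM, filterByExpr, quasi-likelihood test, Benjamini-Hochberg adjustment over all genes tested), on the 8 libraries compared (16 for the interaction). Genes below an adjusted p of 0.05 count as called, with no limit on fold change. CPM used TMM library sizes and log2 CPM a prior count of 2. For single genes the mean log2 CPM also went through an exact permutation test, two-sided, whose smallest p for 4 against 4 libraries is 0.0286. Tables were made in Python 3.11.15 with numpy 2.4.6, pandas 2.3.3 and scipy 1.17.1.

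The paper's methods name no block for the sequencing comparisons, so the main fit was unpaired. Same-numbered libraries within a time deviated together from their group means (r = 0.51 to 0.91 in the dose comparisons), so the numbers were taken to pair them and blocked values stand beside the results. Across times the mock-irradiated libraries had r = 0.38, 0.80, 0.09 and 0.49 for replicates 1 to 4, so pairing there was not shown. GC content and length were removed by offsets from splines with 5 degrees of freedom. Replicates were checked for repeated deposits of 1 library, and their chi-square per degree of freedom was 25.9 or more. The fits were run on simulated data with replicate effects but no trend with GC content or length. That run could not test the correction for such a trend.

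The genes named are the 10 members, list genes called in any dose comparison, *Trp53*, *Mdm4*, cell markers and the 8 genes most like the members (mean log2 CPM of at least 1). Members and lists were chosen with earlier results of these data known. Alternatives were DESeq2 1.42.0, other scalings and filters, all 24 libraries, GC and length correction, and leaving out libraries.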

Additional observations from a re-analysis of the deposited data

Results flagged for a closer look

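Of 60 groups of 4 libraries (10 genes in 6 conditions), 5 had a library whose gap to the nearest other library passed Dixon's limit for 4 values on the log2 CPM scale, where chance gives about 1 in 20. *Btg2* was highest in replicate 2 of mock-irradiated cells at 6 h, with 51.8 CPM, and lowest in replicate 4 of 2 Gy at 6 h, with 48.1 CPM. *Gadd45a* was lowest in replicate 1 of 0.1 Gy at 24 h, with 24.0 CPM. *Ccng1* was lowest in replicate 3 of 2 Gy at 24 h, with 539 CPM, and on the linear CPM scale this group did not pass the limit while the other 4 did. *Ppm1d* was highest in replicate 2 of 0.1 Gy at 6 h, with 29.96 CPM.

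The response to 2 Gy differed between 24 h and 6 h for *Trp53inp1* (−1.04 on the log2 scale), *Mdm2* (−0.75) and *Ccng1* (−0.68) in the interaction test with the replicate block, where 6.78% of all genes were called, 3.23% in this direction. With the GC and length correction added *Mdm2* was still called, at −0.59 (edgeR, adjusted p = 0.0467), and *Trp53inp1* at −0.50 (0.072) and *Ccng1* at −0.24 (0.188) were not. Without replicate 1 or 2 none of the 3 was called, and the unpaired fit called none.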

How the results depend on the processing

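The unpaired fit called 0 of the 10 genes in all 8 comparisons, and the counts below are the members called instead. Replicate numbers paired libraries within a time. With the replicate block the counts were 3 for 2 Gy at 24 h, 1 for 0.1 Gy at 24 h, 3 for 2 Gy against 0.1 Gy at 6 h, 3 for the interaction and, added after the data were seen, 3 for 24 h against 6 h in mock-irradiated cells. The block changed no other call. DESeq2 with the block gave 5 for 2 Gy at 6 h, 3 at 24 h, 2 for 0.1 Gy at 24 h, 5 for 2 Gy against 0.1 Gy at 6 h, 3 for the interaction and 4 for the mock-irradiated cells (added). All 24 libraries with the block gave 6 and 3 for 2 Gy at 6 h and 24 h, 3 for 2 Gy against 0.1 Gy at 6 h, 3 for the interaction and 0 for 0.1 Gy at 24 h, where the call of *Trp53inp1* was lost, and were not run for the mock-irradiated cells. GC and length correction with the block gave 7 for 2 Gy at 6 h, 2 at 24 h, 7 and 2 for 2 Gy against 0.1 Gy at 6 h and 24 h, 1 for the interaction and 5 for the mock-irradiated cells (added). For the last, no filter gave 1, unpaired DESeq2 1 and all 24 libraries unpaired 2. Members in 4 of 4 pairs, on scales tried after the data were seen, were 4 on TPM for 2 Gy at 6 h, 1 for 0.1 Gy at 6 h, 0 (lower) for 0.1 Gy at 24 h, and 2 and 0 for 2 Gy against 0.1 Gy at 6 h and 24 h, against 8, 4, 2, 8 and 6 on TMM-scaled CPM. TPM differs from that CPM by 1 factor per library. The cause of the other differences was not tested.

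Some fits left out 1 library without the block and others 1 replicate number with it. Together they gave 0 to 7 members for 2 Gy at 6 h and 0 to 4 at 24 h. For 0.1 Gy the ranges were 0 to 0 at 6 h and 0 to 5 at 24 h. For 2 Gy against 0.1 Gy they were 0 to 3 and 0 to 2. The mock-irradiated cells had 0 to 5 and the interaction 0 to 4. The share of all genes called in these fits reached 0.799%, 33.1%, 0.0806%, 23.2%, 0.275%, 1.0%, 45.4% and 23.4%, in the same order. For the mock-irradiated cells the 5 members came from the blocked fit without replicate 3, the one that called 45.4%.

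Some log2 fold changes near 0 changed sign. With GC and length correction *Gadd45a* had 0.021 (2 Gy, 6 h), −0.27 (2 Gy, 24 h), 0.014 (0.1 Gy, 6 h) and −0.14 (0.1 Gy, 24 h), *Mdm2* 0.026 and *Trp53inp1* 0.33 (2 Gy, 24 h), and *Zmat3* 0.16 and *Sesn2* −0.037 (0.1 Gy, 24 h). With library size alone *Plk2* had 0.044, *Ppm1d* 0.030 and *Zmat3* 0.080 at 0.1 Gy and 24 h, and with no filter *Zmat3* had 0.020. In blocked fits for 2 Gy at 24 h *Gadd45a* had −0.11, *Mdm2* 0.048, *Ccng1* −0.013 and *Trp53inp1* 0.029 without replicate 3, *Trp53inp1* 0.038 and *Zmat3* −0.028 without replicate 2, and *Ppm1d* 0.0067 without replicate 1. For 0.1 Gy at 6 h *Btg2* had −0.010 and *Gadd45a* 0.00233 without replicate 1, and *Zmat3* 0.037 without replicate 2. For 0.1 Gy at 24 h *Ppm1d* had 0.0074 and 0.0056 without replicates 1 and 2, and *Zmat3* 0.019 and 0.020 without replicates 3 and 4. Over all fits that leave out a library (unpaired) or a replicate number (blocked), *Gadd45a* at 2 Gy and 6 h had −0.15 to 0.0046. For 2 Gy at 24 h *Plk2* had −0.098 to 0.40, *Gadd45a* −0.11 to 0.16, *Mdm2* −0.23 to 0.15, *Ccng1* −0.21 to 0.19, *Ppm1d* −0.18 to 0.11, *Trp53inp1* −0.30 to 0.32 and *Zmat3* −0.041 to 0.35. For 0.1 Gy at 6 h *Cdkn1a* had −0.21 to 0.35, *Btg2* −0.054 to 0.092, *Plk2* −0.10 to 0.28, *Gadd45a* −0.16 to 0.047, *Mdm2* −0.044 to 0.34, *Ppm1d* −0.16 to 0.20, *Trp53inp1* −0.012 to 0.59, *Zmat3* −0.14 to 0.13 and *Sesn2* −0.081 to 0.37. For 0.1 Gy at 24 h *Plk2* had −0.30 to 0.20, *Ppm1d* −0.18 to 0.086 and *Zmat3* −0.14 to 0.079. At 2 Gy and 6 h the other 9 genes kept their direction under every alternative run. Every count of the 10 genes was at least 354.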
